A study of Drosophila melanogaster with 4 samples.

Results

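The X chromosome of Drosophila melanogaster carried 1532 of the 10507 H3K27me3-enriched regions that the authors listed for the series as a whole. A region was taken as a member when its sequence was X, and every member was kept. The lists of the ChIP libraries held 547 X regions of 4865 in replicate 1 and 1477 of 10330 in replicate 2. H3K27me3 was mapped by chromatin immunoprecipitation and sequencing (ChIP-seq) in head nuclei of adult flies of the wild-type strain Oregon-R (Oregon-R-modENCODE). The 2 ChIP libraries, made with lot 3 of an Abcam antibody, each came with an input library of the same nuclei, and the flies received no treatment. The adults are described as mixed, with neither their sexes nor their exact ages stated in the labels. Heads were collected in bulk with sieves, so each library mixes many cell types. Nothing states that the replicates came from separate flies, and their spread may thus be technical.

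H3K27me3 is the trimethylated form of lysine 27 of histone H3, placed by the Polycomb repressive complex PRC2 and bound by the complex PRC1. In flies both complexes are brought to Polycomb response elements, and the mark spreads from them into broad domains over silenced genes, many of which encode developmental transcription factors. The X carries genes of that kind, among them the achaete-scute complex, and in males it is also the chromosome on which the dosage compensation complex acts. Positions are those of release 5 of the FlyBase genome, from 1 at the first base of the arm, and the X sequence is 22.4 Mb long. The gene table used here belongs to release 6, so no region was assigned to a gene and regions are named by position.

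Called H3K27me3 regions covered less of X than of the autosomal arms 2L, 2R, 3L and 3R pooled. Cover, domains, gaps and replicate support all rest on called regions. The sexes of the flies are not stated, so the copy number of X is unknown. Whether copy number or a different limit of calling on X bears on these measures was not tested. In replicate 1, 18.3% of X and 24.9% of the autosomal arms lay in regions, and in replicate 2, 26.1% of X and 35.2% of the autosomal arms. Both libraries were lower on X. The difference was -7.85 ± 1.78 percentage points (SD, n = 2), taken within each library because the list of replicate 2 is longer. X was also lower than each arm by itself in both libraries, by the smallest margin against 3L (-2.18 ± 1.26 points, SD, n = 2). With 2 libraries, exact sign flips (a two-sided permutation test) give no p below 0.5, so differences between X and the other arms are given without a call. When only the higher-scoring regions of each list were kept, from its median score up, the difference was -2.07 ± 0.76 points (SD, n = 2). With lists of equal numbers of regions, highest scores first, it was -3.82 ± 3.91 points (SD, n = 2). Replicate 1, the shortest list, is unchanged by the second limit, at -6.59 points. Both limits rank by the score, which was higher on X, so they keep X regions preferentially.

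X held fewer wide domains than the pooled autosomal arms, and more of its length lay in long gaps. Regions under 5 kb apart were joined into domains. Domains of at least 20 kb numbered 2.32 per Mb of X and 3.74 per Mb of the autosomal arms in replicate 1. In replicate 2 they numbered 3.66 per Mb of X and 5.36 per Mb of the autosomal arms. The difference was -1.56 ± 0.203 per Mb (SD, n = 2). The joined domains of X were also narrower, with a median width of 3408 bp on X and 6350 bp on the autosomal arms in replicate 1, and of 4122 bp on X and 6411 bp on the autosomal arms in replicate 2. Gaps of at least 100 kb between domains took up 54.5% of X and 37.6% of the autosomal arms in replicate 1, and 15.6% of X and 7.40% of the autosomal arms in replicate 2. Here the libraries shared the direction but not the size, and replicate 1, with the shorter list, had the larger gaps on every arm. 3L was the arm most like X. Domains of at least 20 kb were 0.52 ± 0.26 per Mb fewer on X than on 3L (SD, n = 2), and in the whole-series list they numbered 4.64 per Mb of X and 4.73 per Mb of 3L. Gaps of at least 100 kb took up 48.9% of 3L in replicate 1 and 8.71% in replicate 2. The share was higher on X in both, by 6.25 ± 0.92 points (SD, n = 2). The number of these gaps was 2.19 per Mb of X and 2.32 per Mb of 3L in replicate 1. In replicate 2 it was 1.11 per Mb of X and 0.61 per Mb of 3L, so the number had no common direction. The share of covered length in domains of at least 20 kb, against the pooled autosomal arms, had no common direction either. It was 84.3% on X and 80.9% on the autosomal arms in replicate 1, and 69.1% on X and 74.7% on the autosomal arms in replicate 2.

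**Figure D1:**
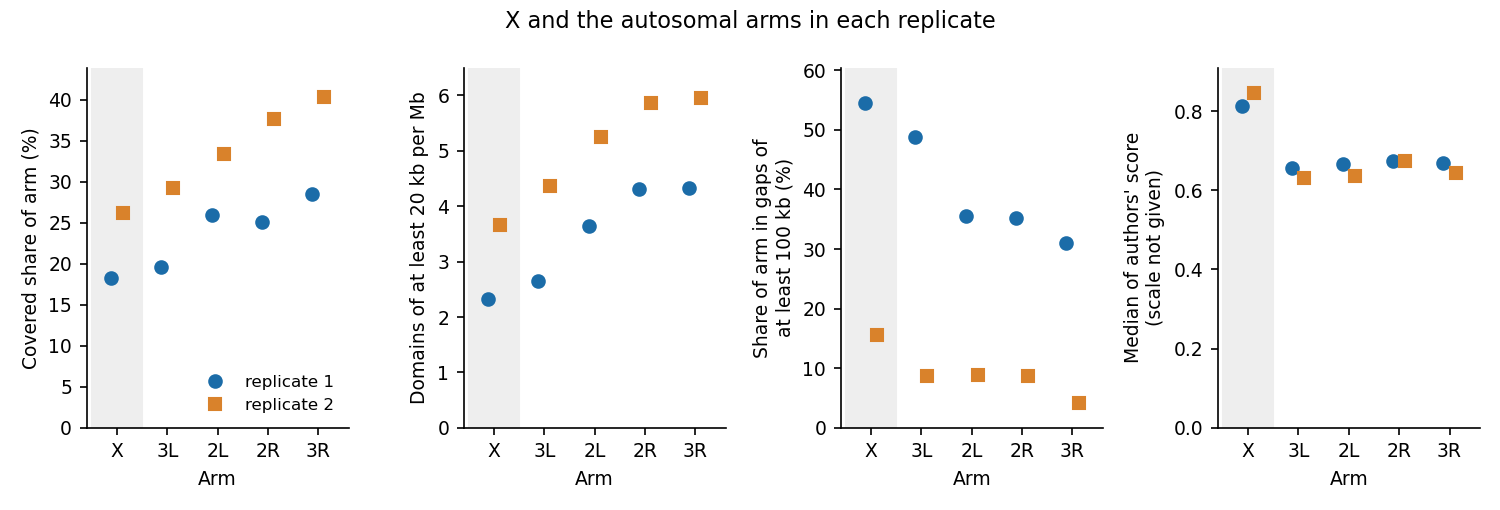
Covered share, density of domains of at least 20 kb, share of the arm in gaps of at least 100 kb, and median of the authors' score, for X (shaded) and each autosomal arm, with 1 point per replicate. X had the lowest covered share, 18.3% in replicate 1 and 26.1% in replicate 2, and the highest median score, 0.81 in replicate 1 and 0.85 in replicate 2.

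Regions on X carried higher scores than regions on the autosomal arms. The score is the authors' own, no source used here gives its scale, and it was compared within a list only. Nor does any source used here say whether it was corrected for the copy number of X in these flies, whose sexes are not stated. The median score was 0.81 on X and 0.67 on the autosomal arms in replicate 1. It was 0.85 on X and 0.65 on the autosomal arms in replicate 2, and the mean difference was 0.17 ± 0.04 (SD, n = 2). The shift was seen against each autosomal arm alone, from 0.16 against 2R to 0.19 against 3L as means of the replicates. The low end of the scores was shifted too: the 5th percentile was 0.61 on X and 0.48 on the autosomal arms in replicate 1, and 0.49 on X and 0.28 on the autosomal arms in replicate 2. Among regions under 2 kb, the medians were 0.71 on X and 0.58 on the autosomal arms in replicate 1, and 0.68 on X and 0.48 on the autosomal arms in replicate 2. X was higher in each of 4 width classes in each of the 3 lists, by 0.11 to 0.34. Of the X regions, 51.0% in replicate 1 and 41.4% in replicate 2 scored in the upper 25% of their list, against 21.1% of autosomal regions in each library.

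**Figure D2:**
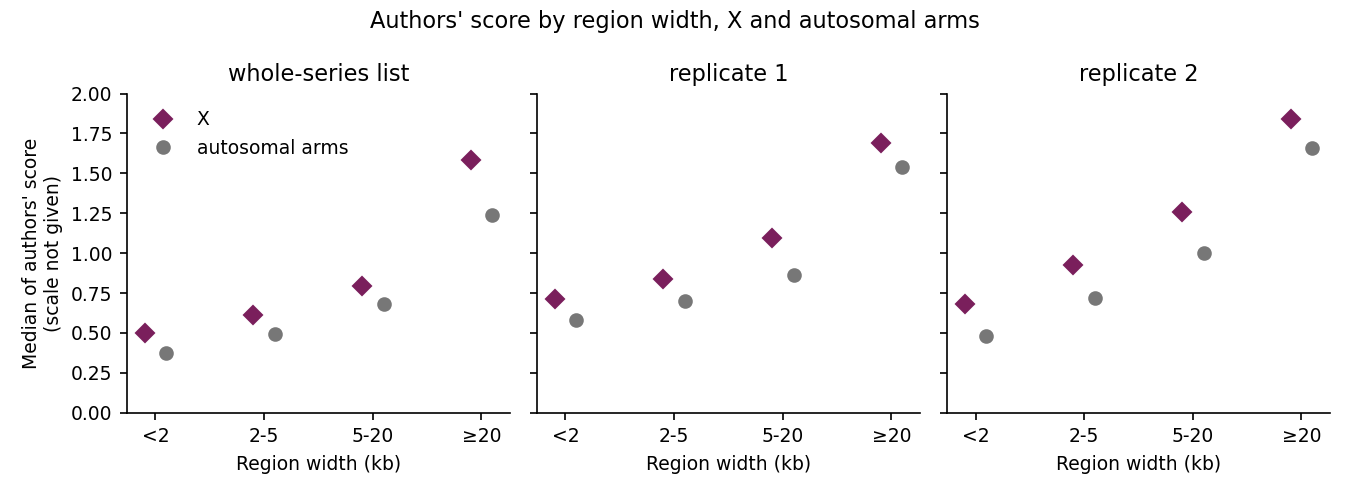
Median of the authors' score (scale not given) by region width, for X (diamonds) and the autosomal arms (circles), in the whole-series list and in each replicate. X lies above the autosomal arms in every width class of every list, and in both the median grows with width.

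Along the arm the mark was uneven, with the same window highest in all 3 lists. X was divided into 23 windows of 1 Mb numbered from the first base, of which the last is shorter and left out of ranks. Window 8 (7000001 to 8000000) was covered to 66.5% in the whole-series list, 62.7% in replicate 1 and 50.8% in replicate 2. It was the only full window of 22 with more cover in replicate 1 than in replicate 2. Window 19 (18000001 to 19000000) followed with 54.5% in the whole-series list, 30.1% in replicate 1 and 49.6% in replicate 2. The next was window 5 (4000001 to 5000000), with 50.7% in the whole-series list, 33.9% in replicate 1 and 42.2% in replicate 2. These 3 windows and window 21 were the only full windows over 40% in the whole-series list. The 5 highest windows of each list held 37.5% of the covered X length in the whole-series list, 46.1% in replicate 1 and 38.1% in replicate 2.

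The emptiest stretch lay near the middle of the arm. Window 13 (12000001 to 13000000) had 9.01% in the whole-series list, 2.08% in replicate 1 and 8.08% in replicate 2. Window 12, next to it, had 13.7% in the whole-series list, 1.36% in replicate 1 and 11.6% in replicate 2. Together with window 11, they formed a run that averaged 13.6% in the whole-series list, 2.69% in replicate 1 and 11.6% in replicate 2. The third lowest was window 7 (6000001 to 7000000), with 15.1% in the whole-series list, 2.33% in replicate 1 and 12.7% in replicate 2. It stands directly before window 8, the fullest of the arm. Low windows were more frequent on X: 7 of 22 full windows were under 20% in the whole-series list, against 9 of 95 on the autosomal arms. In replicate 1 these were 14 of 22 on X and 35 of 95 on the autosomal arms, and in replicate 2 they were 8 of 22 on X and 12 of 95 on the autosomal arms. On 3L alone the share of such windows in replicate 1 was 62.5%, close to the 63.6% of X.

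The replicates ordered the windows alike, and the ratio of their covers was lowest in the 4 windows with the least mark. Over the 22 full windows the cover of both libraries had a Pearson correlation of 0.90 and a Spearman correlation of 0.92. These describe windows of 2 libraries that share a genome and a calling method, and no test was made on them. The cover of replicate 1 was 0.63 times that of replicate 2 in the median window, from 0.12 times in window 12 to 1.23 times in window 8. The Jaccard index (length covered in both replicates over length covered in either) was 6.88% in window 12 and 12.3% in window 7, and 74.6% in window 4, the highest.

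**Figure D3:**
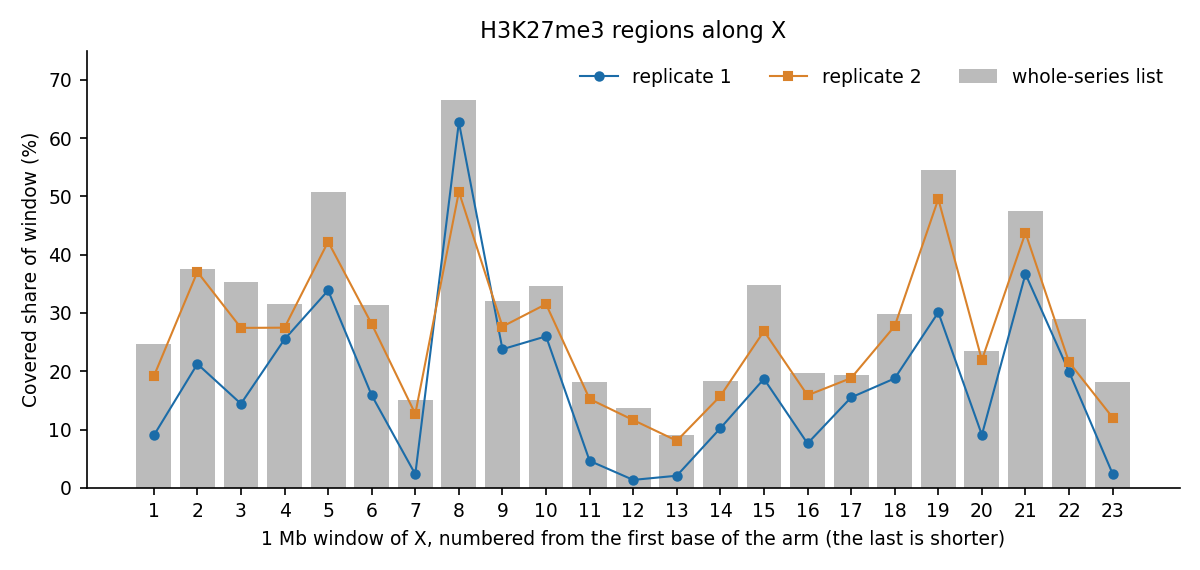
Share of each 1 Mb window of X inside H3K27me3 regions, in the whole-series list (bars) and in each replicate (points joined by lines). Window 8 is the highest in all 3 lists, windows 7 and 11 to 13 are the lowest 4 of the full windows, and replicate 1 lies below replicate 2 in every full window but window 8.

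Most of the covered length of X lay in wide joined domains, while domains under 5 kb were the most numerous class. The whole-series list gave 488 domains, of which 241 were under 5 kb wide, 143 were 5 to 20 kb, 61 were 20 to 50 kb and 43 were at least 50 kb. The narrowest class held 6.84% of the covered length and the widest 59.8%. On the autosomal arms the widest class held 62.7% of the length, in 252 of 2086 domains. By replicate, X had 238 domains in replicate 1 and 541 in replicate 2, with 25 and 39 of at least 50 kb. Domains of at least 20 kb thus numbered 104 in the whole-series list, 52 in replicate 1 and 82 in replicate 2, and with joining under 1000 bp only, the whole-series list had 60.

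The 10 widest domains of X spanned 1.83 Mb, or 8.15% of the arm, and held 24.7% of its covered length. The widest, 337 kb at 7237949 to 7574863, had 9 regions of replicate 1 over 97.4% of its length, and 53 regions of replicate 2 over 63.2%. Within it lay the widest X region listed for the series (7375341 to 7544259, 169 kb) and that of replicate 1 (7375450 to 7499132, 124 kb). In replicate 2 the widest unbroken piece of this domain was 15.5 kb. The same domain was thus near solid in one library and broken in the other. A second domain of the same window, 147 kb at 7027798 to 7174688, was covered to 98.3% in replicate 1 and 95.2% in replicate 2. These 2 domains were neighbours, with a gap of 63260 bp between them, in the window with the highest cover of the arm.

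Another 4 of the 10 domains had at least 72.8% of their length covered in both libraries. The second widest, 239 kb at 20396596 to 20635212, was covered to 97.8% in replicate 1 and 90.2% in replicate 2. The domain of 162 kb at 4264906 to 4426885 was covered to 98.5% in replicate 1 and 96.1% in replicate 2, and 94.9% of it lay in both, the most among the 10. It also had the highest length-weighted mean score of the 10, 1.85. The domain of 140 kb at 8615604 to 8756013 was covered to 89.7% in replicate 1 and 82.4% in replicate 2. One of 149 kb at 17199693 to 17348660 was a single region in replicate 1, covering 76.4% of it, and 11 regions in replicate 2, covering 80.0%. All 4 were split into more regions in replicate 2 than in replicate 1.

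The remaining wide domains joined many regions, at least 17 each in the whole-series list. From 25.4% to 64.2% of their length lay in both replicates. The domain of 170 kb at 18859240 to 19029147 joined 35 regions of the whole-series list, and its cover was 31.5% in replicate 1 and 60.8% in replicate 2. Only 25.4% of it lay in both, the least among the 10, and its mean score was the lowest of them, 0.71. The domain of 176 kb at 9698859 to 9875033 joined 26 regions and was covered to 66.9% in replicate 1 and 70.0% in replicate 2. The domain of 153 kb at 14501403 to 14654569 joined 18 regions, with 81.2% in replicate 1 and 66.3% in replicate 2. The last of the 10, 155 kb at 18102816 to 18257398, joined 17 regions, with 66.8% in replicate 1 and 84.7% in replicate 2. Its widest single pieces were 35.9 kb in replicate 1 and 61.7 kb in replicate 2, the longest piece of replicate 2 in any of the 10. Of the 10 domains, 6 had more cover in replicate 1, the library with less cover on the arm as a whole.

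**Figure D4:**
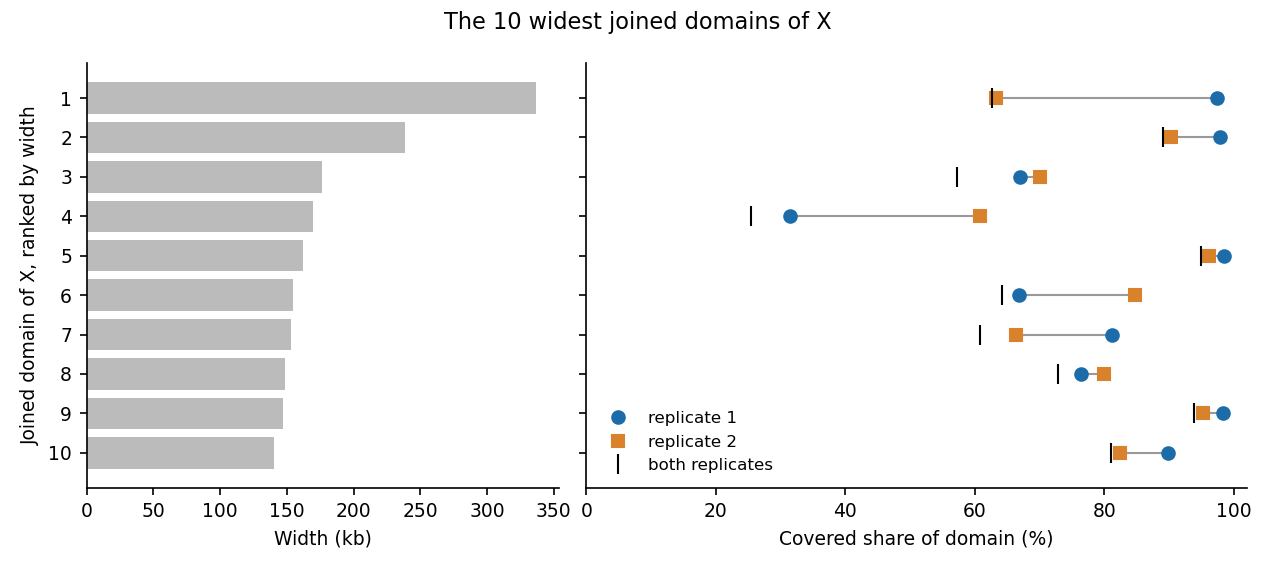
The 10 widest joined domains of X in the whole-series list, with their width in kb (left) and the share of each covered in replicate 1, in replicate 2 and in both (right). Domain 1 (337 kb) has 97.4% in replicate 1 and 63.2% in replicate 2, and domain 4 (170 kb) has 31.5% in replicate 1 and 60.8% in replicate 2.

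The 3 highest scores of X in the whole-series list belonged to regions of 25.6 to 42.4 kb that both libraries held. The highest of the whole-series list, 2.33, was at 17689310 to 17714911 (25.6 kb), covered to 99.6% in replicate 1 and 99.1% in replicate 2. The third, 2.20, was its neighbour at 17645711 to 17688076 (42.4 kb), covered to 99.5% in replicate 1 and 99.4% in replicate 2. The second, 2.30, lay at 1639273 to 1666991 (27.7 kb), covered to 99.3% in replicate 1 and 99.4% in replicate 2. None of the 3 was in the 10 widest domains. The highest score of replicate 1 on X, 2.39, lay in the first of them, but that of replicate 2, 3.07, was found at 21769054 to 21770668, in a region 1615 bp wide that did not touch replicate 1. The widest X region of replicate 2, 88.1 kb at 3887855 to 3975924 with a score of 2.06, was covered in full by 1 region of replicate 1 with a score of 2.10.

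Spacing between domains was skewed, with few long gaps. In the whole-series list the 487 gaps had a median of 13.6 kb and quartiles of 7.62 and 34.6 kb. The median gap was 27.9 kb on X and 17.8 kb on the autosomal arms in replicate 1, and 14.6 kb on X and 12.8 kb on the autosomal arms in replicate 2. In the whole-series list it was 13.6 kb on X and 13.4 kb on the autosomal arms, so typical spacing differed little there. The 28 gaps of at least 100 kb on X took 4.06 Mb, or 18.1% of the arm, while such gaps on the autosomal arms, 56 in number, took 8.06% of their length. Such gaps numbered 49 on X in replicate 1 and 25 in replicate 2.

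In the whole-series list the longest gap, 322 kb at 13457272 to 13779043, held no base of replicate 1 and 4435 bp of replicate 2. The next, 249 kb at 11377141 to 11626080, held no base of replicate 1 and 61 bp of replicate 2. The gap of 230 kb at 23054 to 253383, near the start of the arm, was empty in both replicates, with a single region of the whole-series list before it. These 3 were followed by 192 kb at 15808212 to 16000072 and 173 kb at 12522930 to 12695625. Of the 28 long gaps, 24 held no base of replicate 1 and 4 held none of replicate 2. The long gaps held 29384 bp of replicate 2 and 1953 bp of replicate 1, bases that the whole-series list did not carry. Some of these are ends of regions that reach into a gap. The 61 bp above, for example, are fewer than the narrowest X region of replicate 2, 1301 bp. The gap of 192 kb ended where, at base 16000073, a domain of 117 kb began, which replicate 1 covered with 1 region.

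Replicate support on X, counted as a touch of at least 1 bp, rose with width. A wider region has more bases that can be touched, so part of this rise is built into the count. Of the 1532 regions of the whole-series list on X, 362 (23.6%, exact Clopper-Pearson 95% interval 21.5% to 25.8%) touched both replicates by at least 1 bp, against 31.4% over all sequences. On the autosomal arms 2891 of 8347 (34.6%, interval 33.6% to 35.7%) did. A further 745 X regions (48.6%) touched replicate 2 only, against 45.6% over all sequences. Replicate 1 only was touched by 55 (3.59%), against 4.81% over all sequences. The other 370 (24.2%) touched neither, against 18.2% over all sequences. The 362 regions in both were few but long, with a median width of 5064 bp and 67.5% of the X length, and the 370 in neither had a median of 1257 bp and 7.35% of the length. Their median scores were 0.76 for both and 0.52 for neither. The intervals hold for counting error alone, since neighbouring regions depend on one another, and the whole-series list is not independent of the replicates. On X the narrowest region was 1304 bp wide in replicate 1, 1301 bp in replicate 2 and 1001 bp in the whole-series list. With regions of at least 1301 bp only, 29.7% of X regions and 41.8% of autosomal regions touched both.

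By length, the share of X held by both replicates was near that of the other arms. Of the 6.85 Mb of X in the whole-series list, both replicates held 51.5%, replicate 2 alone 28.6%, replicate 1 alone 7.75% and neither 12.1%. On the autosomal arms 54.1% lay in both and 8.43% in neither, the latter from 6.52% on 2R to 10.1% on 3L. The Jaccard index of the replicates was 54.8% on X and 55.4% on the autosomal arms. Replicate 2 held 85.9% of the X length of replicate 1, and replicate 1 held 60.2% of the X length of replicate 2. The lower share of X regions touching both replicates was thus not matched by a like difference in shared length. The share in neither replicate was higher on X than on the autosomal arms both ways. It was 24.2% against 15.85% of regions, and 12.1% against 8.43% of length.

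Of the 104 X domains of at least 20 kb, 90 (86.5%) were touched by both replicates, against 91.9% over the 5 major arms, and 14 by replicate 2 alone. A touch can be slight, and only 39 of the 104 had at least 50% of their length in both replicates. Such shares are of the joined length, which includes gaps under 5 kb that the whole-series list leaves uncovered. For example, that list covered only 41.7% of the domain at 747575 to 776323. How far the joined gaps lower these counts was not tested. Replicate 1 covered at least 50% of 42 domains and replicate 2 of 72. The median cover was 31.8% in replicate 1 and 64.5% in replicate 2. All but 1 of the 43 domains of at least 50 kb were touched by both, as were 48 of 61 domains of 20 to 50 kb, 55 of 143 of 5 to 20 kb and 10 of 241 under 5 kb. On the autosomal arms these were 250 of 252, 272 of 310, 328 of 696 and 67 of 828, from the widest to the narrowest class. Each of the 4 classes had a lower share on X. Replicate 2 covered more of the domain in 77 of the 104, and had more regions in 88. Its list was longer over all sequences too, with 10330 regions against 4865 in replicate 1. The counts by cover and by number of regions were not made for the autosomal arms, so they are not given as traits of X.

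Cover within wide domains went with the score. The 52 domains with the higher length-weighted mean score were covered to a median of 88.1% in replicate 1 and 85.2% in replicate 2. The 52 with the lower score were covered to a median of 8.70% in replicate 1 and 45.0% in replicate 2, and the 14 without replicate 1 were all among them. Score and calls come from the same libraries, so this is a description of the list. Joined gaps count as length in these shares too. Outer edges were taken as the first and last base of each replicate inside the domain, so cover beyond the domain does not count. Between the replicates they differed by a median of 1958 bp at the lower coordinate and 2209 bp at the higher one. This was in the 90 domains that both replicates touched. Of these 90, 15 had both edges within 1000 bp.

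**Figure D5:**
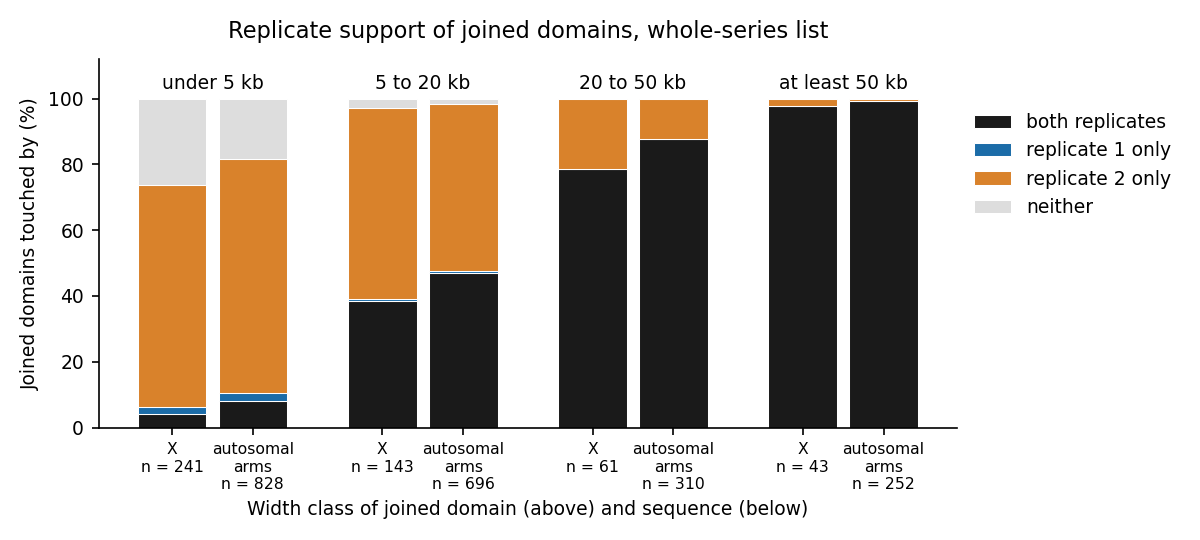
Share of joined domains of the whole-series list touched by both replicates, by 1 of them or by neither, for X and the autosomal arms in 4 width classes, with the number of domains under each bar. The share touched by both grows with width on X, with 10 of 241 domains under 5 kb and 42 of 43 of at least 50 kb. A touch needs only 1 bp, so wide domains are touched more readily.

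The separately assembled heterochromatin of X (XHet, 204112 bp) is not part of these counts. It held 11 regions covering 9.85% of it in the whole-series list, no region in replicate 1 and 8 regions covering 7.23% in replicate 2.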

How the data were processed

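H3K27me3 ChIP-seq regions of 2 ChIP libraries from fly heads were analysed, each with an input that has no list of its own. The submitters' processing notes name Bowtie 0.12.7. The authors deposited region lists on FlyBase release 5, per the file headers, with first and last base and a score for each region. The caller, its threshold, the score's scale and how the whole-series list was made are in no source used here. Read numbers are unknown, so the error that depth adds to each value cannot be given.

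Regions were taken as deposited, and 1 depleted region, not on X, was left out. No regions overlapped within a list. Regions under 5 kb apart were joined, X was divided into 1 Mb windows, and replicate support needed 1 bp. Values for the replicates are means with the SD, and intervals are exact. The regions named are, by rule, the 10 widest joined domains, the widest region of each list, the 5 longest gaps, the 3 highest scores and the 3 highest and lowest windows, and others were chosen after their values were seen. The rule and its measures were chosen with earlier results of these data known. The alternatives were score and width limits, lists of equal length, other joining distances, windows and overlaps, and each replicate alone. The comparison of scores was added after the data were seen. On 20 simulated lists with planted domains, the code returned each planted number, length and overlap. Python 3.11.15, numpy 2.4.6, scipy 1.17.1 and matplotlib 3.10.9 were used. Sequences and gene assignments are not analysed here.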

Additional observations from a re-analysis of the deposited data

How the results depend on the processing

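The lower cover of X than of the autosomal arms kept its direction under every alternative run but varied in size: -2.07 points with regions from the median score up, -3.82 with lists of equal numbers of regions, -10.3 after joining under 5000 bp, -2.18 against 3L and -12.2 against 3R, and -9.11 to -6.59 with either replicate alone. The score and equal-number limits favour X regions, whose scores were higher, and the equal-number limit leaves replicate 1 as it is. The mean cover of X was 22.2% ± 5.54 (SD, n = 2) as deposited. It ran from 19.1% with regions of at least 2000 bp to 26.4% after joining under 5000 bp. For either replicate alone it was 18.3% to 26.1%, and with 2 libraries these lie within 1 SD of their mean by construction. Domains of at least 20 kb numbered 69 with regions of at least 2000 bp, 60 with joining under 1000 bp and 52 in replicate 1. The median spacing was 26619 bp with joining under 10000 bp and 27883 bp in replicate 1. The share of X regions touching both replicates was 28.5% with regions of at least 2000 bp and also with lists of equal numbers (28.5%), 29.7% from 1301 bp and 16.2% when 50% of the region had to be covered by each. With 1 replicate required in place of both, it was 27.2% to 72.3%, and the length so covered was 59.3% to 80.2%. The highest window was 84.2% with 0.5 Mb windows, 41.0% with 2 Mb windows, 54.8% with windows moved by 0.5 Mb and 50.8% in replicate 2. Window 8 was the highest in each list under the score, width and equal-number limits. In these cases counts and shares changed by construction, since fewer regions or other borders were used. The higher median score of X kept its direction under all 10 alternatives run. No paired analysis was possible because ChIP and input cannot be paired when only the ChIP libraries have region lists; differences between X and the other arms were taken within each library. Since read depth is unknown, differences in list length between the replicates cannot be set against it.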
